A study of Homo sapiens with 2 samples.

Results

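The genes of the cytosolic ribosomal proteins were followed through 2 lists of CUT&Tag peaks. They were taken by name, as every protein-coding peak annotation whose gene symbol was RPSA or began with RPL, RPS or RPLP and a digit, leaving out the RPS6K kinases and readthrough symbols with a hyphen. In the control list this rule took 174 of 49854 peaks, under 78 of 13108 protein-coding gene names. In the drug list it took 122 of 29283 peaks, under 76 of 11385 names. The lists together held 80 such names, of which 74 stood in both. A RefSeq gene table held 88 symbols that satisfy the rule. Of these, 77 were core ribosomal proteins, 46 of the large and 31 of the small subunit. A further 10 were paralogs, and 1, RPS19BP1, encodes a binding partner of a ribosomal protein and entered through its name alone.

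The cytosolic ribosome is built from a small subunit, which holds the messenger RNA and decodes it, and a large subunit, which joins the amino acids. Its protein genes are scattered over the genome, are transcribed at high rates in growing cells and are made in matched amounts. Their messenger RNAs typically begin with a C followed by a run of pyrimidines, the terminal oligopyrimidine (TOP) tract, through which growth signalling by mTOR and the protein LARP1 controls their translation.

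The study used PLC8024, an established liver cancer cell line, with 1 untreated control library and 1 library from cells treated at 10 nM for 6 hours with a drug. CUT&Tag directs a transposase to an antibody bound in nuclei, so that the fragments sequenced come from around the bound site. The series title names KIF11, a mitotic kinesin, as the subject, while which drug and which antibody were used is not stated, and the IgG and Pol II groups of the design were not analysed here. Both libraries share the cell line, the kit and the protocol, and differ only in the treatment as labelled. With 1 library in each group there was no replicate error and no test between groups, so every difference given here is between 2 libraries. Read depth was unknown.

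Of 10 genes listed as markers of liver cells, 5 had an entry in the promoter table used for starts, and 3 of them a start-site peak in both lists. The liver transcription factor HNF4A had a score of 425 in control and 151 in drug, CEBPA of 321 and 187, and the secreted protein gene SERPINA1 of 130 and 52, whereas ALB and AFP had none. Of 5 blood cell markers, 3 had an entry. CD68 scored 1304 and 401, and PTPRC and CD14 had no peak. Among fibroblast and endothelial markers only PDGFRB had an entry, and it had no peak. Markers without an entry in the promoter table were not examined. What these peaks say about the identity of the cells cannot be read without the antibody.

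A start-site peak was defined as the strongest peak whose centre lay within 1000 bp of an annotated transcription start. All 77 core genes had one in control, a share of 100% (95% interval 95.3 to 100), and 75 of 77 had one in drug, 97.4% (90.9 to 99.7). Over all 15842 protein-coding genes of the promoter table the shares were 60.3% in control and 50.6% in drug. For 15 core genes without an entry in that table the start came from the authors' own distances, which requires a named peak, so the 62 core genes with an entry are the fairer count. Of these, 62 of 62 had a start-site peak in control (94.2 to 100) and 60 of 62 in drug, 96.8% (88.8 to 99.6). Every small subunit gene, 31 of 31, had one in both lists.

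The core genes share a feature of sequence at the position where these peaks lie. The windows that follow run from 10 bases before to 15 bases from the annotated start, 5′ to 3′ on the gene's strand, from RefSeq on GRCh38.p14. Capitals mark the pyrimidine tract where one qualified as a TOP start, that is a C followed by at least 4 C or T beginning within 5 bases of the start. RPS12, RPLP1, RPS13, RPS14 and RPS16 had strong peaks, RPL29 and RPL7A had a peak in control only, RPS21, RPS18 and RPL41 had weak peaks, and RPS26, RPL27 and RPS4X had strong or intermediate peaks without a tract.
RPS12, chr6:132814559-132814583 (plus strand): cggatgaggCCTCTTTCCCTgccgc
RPLP1, chr15:69452808-69452832 (plus strand): ggcgcgagagCCCCTTTCCTCagct
RPS13, chr11:17077653-17077677 (minus strand): ctctcgCTCTCCTTTCgttgcctga
RPS14, chr5:150449725-150449749 (minus strand): ccctcccaCTCTCTCTTTCCggtgt
RPS16, chr19:39435935-39435959 (minus strand): ccctagCTTTCCTTTTCCggttgcg
RPL29, chr3:51995881-51995905 (minus strand): cagCCCCTTTCTCTTCCggttctag
RPL7A, chr9:133348208-133348232 (plus strand): aTTCCCTTTCCTTTCTCTCTCCTCC
RPS21, chr20:62387093-62387117 (plus strand): ctagctgCTTCCTTTCTCTCTCgcg
RPS18, chr6:33272065-33272089 (plus strand): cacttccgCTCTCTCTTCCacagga
RPL41, chr12:56116623-56116647 (plus strand): cttcgCCTTTCTCTCggccttagcg
RPS26, chr12:56041908-56041932 (plus strand): acataacctcgattttcttccgcca
RPL27, chr17:42998409-42998433 (plus strand): gtgaaaggttagcggaagtgtcctt
RPS4X, chrX:72277234-72277258 (minus strand): ctccagccccaatttctacgcgcac

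A TOP start was found in 53 of the 62 core genes with a promoter entry, 85.5% (95% interval 74.2 to 93.1), against 28.0% of all 15842 genes. Where a gene has several annotated starts, any of them counted. The 9 core genes without one were RPL6, RPL9, RPL15, RPL17, RPL27, RPS4X, RPS15, RPS26 and RPS29, the last judged only at a start far from the one the authors used. The authors' start also differed from the table's by 26 bp at RPL9, by 29 bp in control and 32 bp in drug at RPS15, and by 589 bp in drug at RPL17. It differed for some genes with a tract too, as by 54 bp at RPL13A. The tract was not searched at the authors' starts. The tract did not separate strong from weak peaks. The 53 genes with it had a median score of 608 in control and 179 in drug, and the 9 without it 780 and 231. RPL29 and RPL7A, the core genes absent from the drug list, both carry a tract, as the strongest gene RPS12 does. Among mitochondrial ribosomal protein genes, whose proteins serve the separate ribosome of mitochondria, 16 of 69 had such a start, 23.2% (13.9 to 34.9). Of 12 other genes known for TOP messenger RNAs, such as the elongation factor gene EEF1A1, 10 had one.

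**Figure D1:**
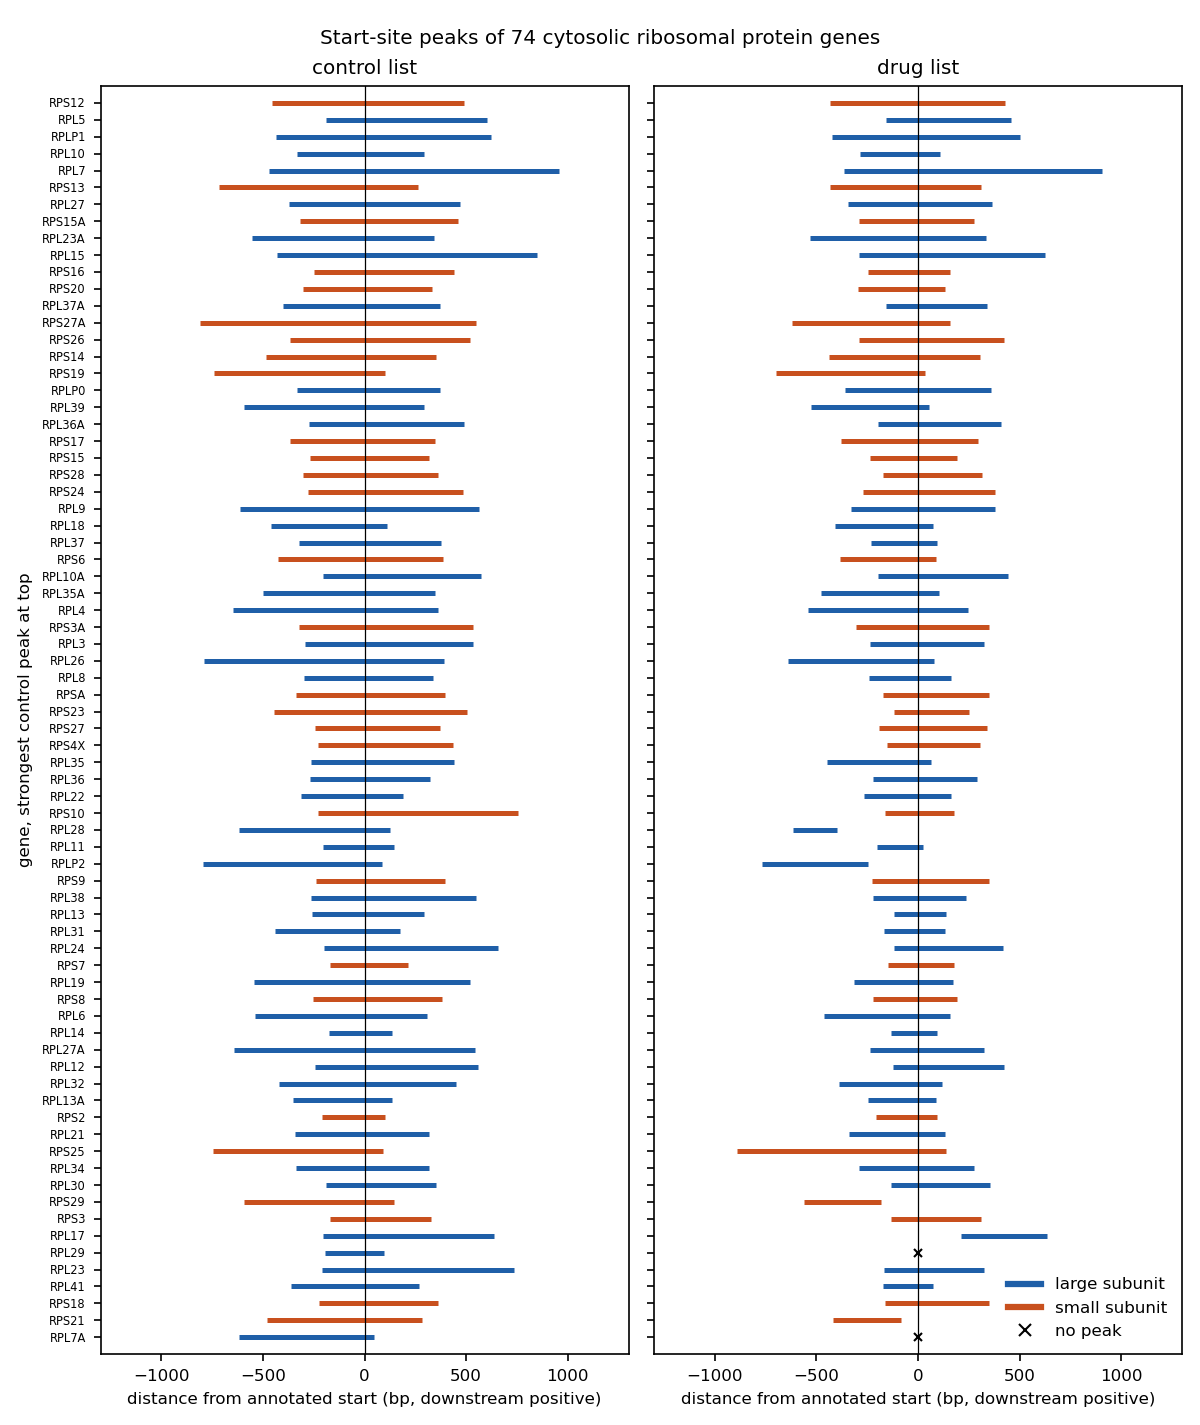
Extent of the start-site peak of each of 74 core genes in the control list (left) and the drug list (right), as distance from the annotated start in bp along the gene's strand, with genes ordered by control score. Bars are peaks and crosses mark genes without one: all 74 control bars cross the start, 67 of 72 drug bars do, and RPL29 and RPL7A have no drug bar.

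The authors give each peak a score, a whole number that is larger for a more strongly called peak. It was read within its own list only, since a score depends on the depth of its library. RPS12, a small subunit protein, had the strongest start-site peak of the core genes in both lists. Its control peak, 945 bp at chr6:132814114-132815058 on hg38, scored 2274, above 99.3% of the control peaks. Its drug peak, 863 bp, scored 906, above 98.9% of the drug peaks. RPL5, which carries the 5S RNA into the large subunit, scored 1831 in control and 574 in drug. RPLP1, a protein of the stalk that binds the translation factors, scored 1718 and 472. RPL10, which completes the large subunit next to the peptidyl transferase centre, scored 1712 and 463. These 4 were among the 10 strongest core genes in both lists.

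Also among the 10 strongest in control were RPL7 with 1508, RPS13 with 1373, RPL27 with 1356 and RPS15A with 1260. In drug these scored 399, 365, 336 and 585. The drug list also had RPL23A, whose protein lies at the mouth of the exit tunnel, among its 10 strongest with 566 against 1198 in control. RPS26, at the site where messenger RNA leaves the small subunit, scored 537 in drug and 1017 in control, and RPS24 scored 418 and 858. Thus 7 of the 10 strongest genes were the same in both lists.

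The weakest control peaks among core genes were those of RPL7A with 78, RPS21 with 126, RPS18 with 213, RPL41 with 216 and RPL23 with 269. In the drug list the lowest were RPS21 with 21, RPL17 with 36, RPS29 with 44, RPL34 with 48 and RPL23 with 57. RPS21 and RPL23 stood at the low end of both. RPL7A has no drug score, and the drug scores of RPS18 and RPL41 were 130 and 128.

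Across the core genes the median control score was 655, with quartiles of 439 and 942 and a range of 78 to 2274. In drug the median was 222, with quartiles of 124.5 and 308 and a range of 21 to 906. Over all genes with a start-site peak the medians were 418 and 154. Placed in their own list, the core peaks had a median percentile of 91.0 in control and 85.3 in drug, where all genes had 85.4 and 77.9. In control 44 of 77 core peaks, 57.1%, were among the strongest 10% of the list, beside 37.1% of all start-site genes. In drug 24 of 75 were, 32%, beside 24%. Scores above the median of all peaks in the list were found for 76 of 77 core genes in control and 70 of 75 in drug. In control 8586 of all 9549 start-site genes also had such a score, so most start-site peaks pass this mark. The share over all genes in drug was not computed.

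The small subunit genes had the higher medians in both lists. Their median score was 739 in control and 253 in drug, at median percentiles of 92.3 and 87.8. For the large subunit the medians were 592 and 162, at percentiles of 89.9 and 78.9. The ranges of both subunits overlapped, from 78 to 1831 and from 126 to 2274 in control, and no test was made of the difference.

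**Figure D2:**
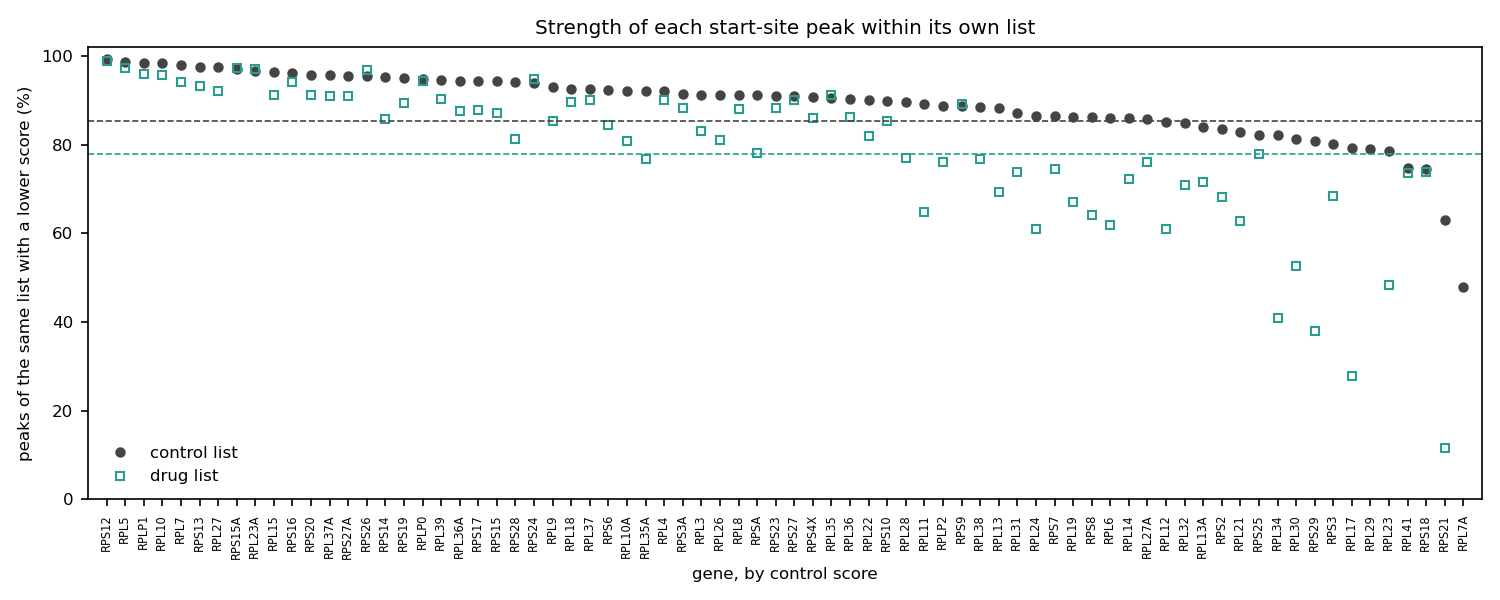
Percentage of peaks in the same list with a lower score, for the start-site peaks of 74 core genes in control (filled circles) and drug (open squares), with genes ordered by control score. Dashed lines give the medians over all protein-coding genes with a start-site peak, 85.4 in control and 77.9 in drug: most core genes lie above the control line, and the low end of the order, from RPL34 to RPS21, spreads down to 11.5 in drug.

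The core genes with a start-site peak in only 1 list were RPL29 and RPL7A, both of the large subunit, and both had it in control. The RPL29 peak was 292 bp wide, the narrowest of all core control peaks, at chr3:51995800-51996091 on hg38. It scored 275, above 78.9% of control peaks, and was named for RPL29 in the promoter class. The RPL7A peak was 665 bp wide, scored 78, above 47.9% of control peaks, and was named for the neighbouring gene MED22, a Mediator subunit. Neither shared a base with any drug peak, and no core gene had a start-site peak in drug alone.

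By position, 75 of 77 core control peaks were overlapped by a drug peak, 97.4% (90.9 to 99.7), beside 82% over all genes with a control start-site peak. The share was 100% for ribosome biogenesis genes, 93.5% for proteasome subunits and 88.2% for mitochondrial ribosomal protein genes. Above the median score of the list, 75 of 76 core genes were overlapped, beside 89.6% of all. The core genes also scored higher than all genes, with control medians of 655 and 418, and the part of the score in this share was not tested. RPL29 was the highest-scoring core gene without a drug peak. In the other direction all 75 core drug peaks overlapped a control peak, beside 98.3% of all genes.

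Most drug peaks lay inside the control peaks. The median width of the core peaks was 766 bp in control, from 292 to 1433 bp, and 515 bp in drug, from 217 to 1271 bp. The drug peak was narrower in 72 of 75 core genes, 96%, beside 94.5% of all 7929 genes with a start-site peak in both lists. The share for the core genes is therefore near that for all genes, and the cause of the narrower peaks was not tested. In 68 of the 75, 90.7%, the drug peak lay wholly within the limits of the control peak, beside 79.9% of all. It was wider than in control for RPLP0, with 724 bp against 707, and for RPS25, with 1033 bp against 839. RPLP0 encodes the base of the ribosomal stalk and RPS25 a small subunit protein.

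The core peaks were centred on the annotated start. The median distance of the peak centre from the start was 15 bp downstream in control, with quartiles of −98 and 80 bp. Over all genes it was −36 bp, that is upstream. In drug the medians were −17 bp for the core genes and −64 bp for all. The control peak covered the start base itself in all 77 core genes, beside 88.1% of all genes, and the drug peak did in 70 of 75, beside 83.1%. Similar lists were close to the core genes. The shares in control and drug were 100% and 92.6% for ribosome biogenesis genes and 98.5% and 96.7% for mitochondrial ribosomal protein genes. For proteasome subunits they were 93.5% and 96.4%. The 5 start-site drug peaks that left the table's start uncovered belonged to RPL17, RPL28, RPLP2, RPS21 and RPS29. At RPL28, whose protein belongs to the large subunit, the drug list held 2 peaks, of 148 and 144, where the control list held 1 peak of 740 bp. The weaker of the 2, at chr19:55385741-55386008, covered the RPL28 start. At the starts that the authors used for RPL17 and RPS29, which differ from the table's, a drug peak covered the start as well.

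RPS29, a small zinc-binding protein of the small subunit, depends on which start is taken. The promoter table puts its start 12330 bp away from the start used in the authors' annotation. At the table's start, which faces the gene LRR1, the peak scored 306 in control and 44 in drug and was named for LRR1. At the authors' start the peak was 843 bp wide and scored 1297 in control, above 97.1% of the list. In drug it was 859 bp wide and scored 391, above 94.0%. The weak RPS29 values given elsewhere, its missing TOP start and its part in the medians of the genes without one hold for the table's start only.

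Scores from lists of different lengths cannot be compared directly, so each score was also ranked among the 7929 protein-coding genes that had a start-site peak in both lists. This ranking was chosen after seeing the data. The median rank of the core genes was the 59.8th percentile in control and the 64.4th in drug. Of the 75 core genes, 30 ranked higher in drug and 45 lower, with a median difference of −1.80 percentile points, drug minus control. The quartiles of the difference were −6.96 and 8.44, beside −6.87 and 6.81 over all genes, of which 48.3% ranked higher in drug. The core genes thus had about the same spread of rank differences as all genes. In the large subunit 13 of 44 ranked higher, with a median difference of −3.70, and in the small subunit 17 of 31, with a median difference of 0.79.

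Genes at both ends of the rank difference were few. RPS18 went from the 15.4th percentile in control to the 42.0th in drug, RPL41, the shortest ribosomal protein, from the 15.8th to the 41.3rd and RPS9 ranked 23.1 points higher, at the 73.1st in drug. RPL35 went from the 57.7th to the 78.7th and RPS25 from the 30.4th to the 49.1st. The RPL35 control peak was named for RPL35, but the drug peak for ARPC5L, which starts 173 bp away on the opposite strand. In the opposite direction RPL11, which with RPL5 and 5S RNA can bind MDM2, went from the 52.2nd to the 29.0th. RPL34 started from the 30.4th and differed by −21.4 points, RPL17 went from the 23.6th to the 3.90th and RPL24 from the 43.1st to the 24.4th. RPS29, at the table's start, differed by −19.7 points and stood at the 7.35th in drug. The RPL17 drug peak lay downstream of the table's start and did not cover it, but it covered the start that the authors' annotation gave for that peak, 589 bp from the table's. Without replicates none of these differences can be set against an error.

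**Figure D3:**
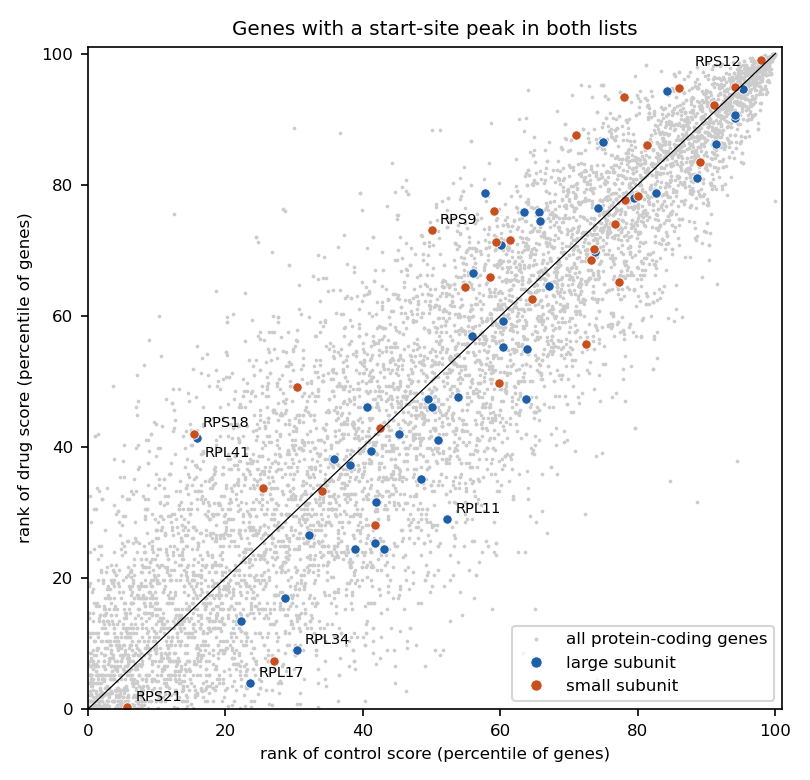
Rank of the drug score against rank of the control score, both as percentiles among the 7929 protein-coding genes with a start-site peak in both lists (grey), with large subunit genes in blue and small subunit genes in orange. The line marks equal rank: 30 core genes lie above it and 45 below, RPS18 and RPL41 lie far above and RPL11, RPL34 and RPL17 far below.

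The percentiles within each list placed the same few genes lowest in drug. RPS21 stood at 63.0 in control and 11.5 in drug, RPL17 at 79.2 and 27.9, RPS29 at 80.8 and 37.9, RPL34 at 82.1 and 41.0 and RPL23 at 78.5 and 48.4. At the other end RPS26 stood at 95.4 and 96.8, RPS24 at 93.9 and 94.7, RPL35 at 90.6 and 91.2, RPL23A at 96.6 and 97.1 and RPS9 at 88.6 and 89.1. Since the lists differ in length, these values show no change between them.

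Upstream of the start, 1 of the 7 motifs searched, that of the ETS family, had a share in core genes whose interval left out the share of all promoters. The windows of 120 bases that follow end at the base before the start and are written 5′ to 3′ on the gene's strand, from RefSeq on GRCh38.p14, with exact motif matches in capitals. RPS18 carries the ETS family letters, and RPL29 and RPS14 carry them on the other strand, with an SP family match there in RPS14. RPL3 carries ETS and SP family letters and, like RPL7A, a TATA match on the other strand. RPS28 carries SP family, TATA and E-box letters. RPS12, with the strongest peak, has no match in these 120 bases.
RPS14, chr5:150449740-150449859 (minus strand): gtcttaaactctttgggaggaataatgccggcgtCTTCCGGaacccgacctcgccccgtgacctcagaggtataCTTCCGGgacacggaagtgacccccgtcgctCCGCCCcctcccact
RPS18, chr6:33271955-33272074 (plus strand): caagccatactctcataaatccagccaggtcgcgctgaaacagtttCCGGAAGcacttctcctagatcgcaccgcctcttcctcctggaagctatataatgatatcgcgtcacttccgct
RPL3, chr22:39319624-39319743 (minus strand): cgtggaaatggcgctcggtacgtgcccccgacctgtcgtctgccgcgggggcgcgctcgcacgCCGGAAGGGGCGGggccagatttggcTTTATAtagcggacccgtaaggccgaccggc
RPS28, chr19:8321376-8321495 (plus strand): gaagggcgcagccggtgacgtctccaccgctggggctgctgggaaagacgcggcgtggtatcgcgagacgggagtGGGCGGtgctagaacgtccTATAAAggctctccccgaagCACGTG
RPL29, chr3:51995896-51996015 (minus strand): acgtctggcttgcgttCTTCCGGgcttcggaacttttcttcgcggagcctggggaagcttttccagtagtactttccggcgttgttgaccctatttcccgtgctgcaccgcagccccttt
RPL7A, chr9:133348098-133348217 (plus strand): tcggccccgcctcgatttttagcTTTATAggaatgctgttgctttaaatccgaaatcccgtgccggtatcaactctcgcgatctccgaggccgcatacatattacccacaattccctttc
RPS12, chr6:132814449-132814568 (plus strand): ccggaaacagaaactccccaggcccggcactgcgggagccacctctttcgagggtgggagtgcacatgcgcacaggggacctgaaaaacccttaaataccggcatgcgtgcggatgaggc

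The motifs were searched as exact letters on both strands of the 250 bases before the start. The ETS family letters CCGGAAG were found in 21 of 62 core genes, 33.9% (22.3 to 47.0), against 13.98% of all promoters and 36.2% of the mitochondrial ribosomal protein promoters. The SP family letters GGGCGG were in 58.1% of core promoters against 62.1% of all, and the NF-Y letters CCAAT in 32.3% against 40.2%. TATAAA was in 5 core genes, 8.06%, against 11.9%, namely RPL3, RPL7A, RPLP0, RPS3 and RPS28. The E-box CACGTG was in RPL13A, RPL19 and RPS28, 4.84% against 9.73%. The YY1 letters AAGATGGCG were in RPS28 alone and the NRF1 palindrome in RPL10A alone, 1.61% each against 0.972% and 1.72%. No ETS match shared a base with an SP match, and 1, in RPL34, overlapped a pyrimidine tract, that of another annotated start of the gene. The median GC content of the 250 bases was 59.2% in the core genes and 62.4% over all. Core genes with the ETS letters had a median score of 535 in control and 148 in drug, and those without them 655 and 232.5. A match of letters is a description and not a bound site.

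**Figure D4:**
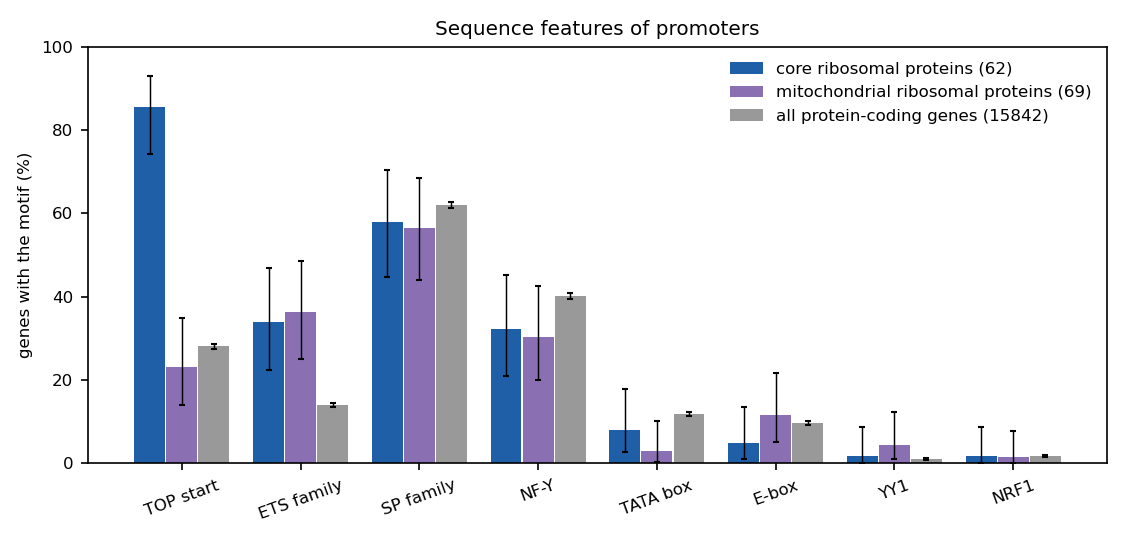
Percentage of genes with a TOP start or with each motif in the 250 bases before the start, for 62 core genes (blue), 69 mitochondrial ribosomal protein genes (purple) and all 15842 protein-coding genes of the promoter table (grey). Error bars are exact Clopper-Pearson 95% intervals: the TOP start stands at 85.5% in core genes against 28.0% of all, and the ETS letters at 33.9% against 13.98%.

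The name a peak carried did not always identify the ribosomal gene under it. Of the core start-site peaks, 8 of 77 in control and 7 of 75 in drug carried another symbol, beside 18.6% and 19.5% over all genes. Outside the promoter class lay 8 and 3 of them, beside 19.8% and 13.3%. In control 1 of the other symbols was RPL36A-HNRNPH2, the readthrough transcript of RPL36A itself. In both lists the RPL18 peak was named for the sphingosine kinase gene SPHK2, the RPL4 peak for ZWILCH and the RPS25 peak for TRAPPC4. In control the RPS27A peak was named for CLHC1. RPL4, RPL7A, RPL18 and RPS25 were named by no peak in either list. By name, 71 core genes were found in control and 69 in drug, fewer than the 77 and 75 found by position.

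A neighbour that starts on the opposite strand within 1000 bp was annotated for 21 of the 62 core genes with a promoter entry, 33.9%, against 22.1% of all genes. RPL15 faces NKIRAS1 at 43 bp, RPL12 faces LRSAM1 at 80 bp, RPS18 faces VPS52 at 110 bp and RPL4 faces ZWILCH at 471 bp. Core genes with such a neighbour had a median score of 720 in control and 223 in drug, and the other core genes 645.5 and 217. Where a peak covers both starts it cannot be assigned to the ribosomal gene alone.

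The paralogs fell into those with and those without a peak. RPL36AL scored 1374 in control and 393 in drug, next to 914 and 250 for its parent RPL36A. RPL22L1 scored 1008 and 364, next to 606 and 185 for RPL22. RPL7L1 scored 820 and 249, RPL26L1 762 and 211 and RPS27L, which responds to p53, 530 and 124. Their parents RPL7, RPL26 and RPS27 scored 1508 and 399, 668 and 177, and 650 and 292. RPL39L, known for expression in the testis, scored 156 and 49 against 923 and 296 for RPL39. RPL10L, also a testis gene, had no peak. RPL3L was not placed because it had no start in the sources used, and the Y-linked RPS4Y1 and RPS4Y2 are not described. RPS19BP1, which is not a ribosomal protein, scored 462 and 199.

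Away from the start the peaks named for ribosomal protein genes were shared less. Within 1000 bp of the start, 78 of 82 named control peaks were overlapped by a drug peak, 95.1% (88.0 to 98.7), beside 71.6% for all protein-coding names. Beyond 1000 bp it was 30 of 92, 32.6% (23.2 to 43.2), beside 25.7%. In drug, all 78 peaks within 1000 bp were overlapped by a control peak, beside 97.5%, and 32 of 44 beyond it were, 72.7% (57.2 to 85.0), beside 53.3%. Over all positions 62.1% of control and 90.2% of drug peaks were overlapped, beside 40.2% and 71.9%.

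The strongest distant peaks occurred in both lists. An intergenic CpG island centred at −7862 bp from the RPL10 start, at chrX:154389742-154390664 on hg38, scored 1107 in control and 618 in drug, where it exceeded the 463 of the RPL10 start itself. A site 10055 bp downstream of the RPLP1 start scored 620 and 199, and one 5320 bp downstream of RPL6 scored 478 and 381, again above the RPL6 start with 439 and 84. A peak in the 3′ UTR of RPS14 scored 424 and 149. Each was assigned to the ribosomal gene as the nearest start and may belong to another element.

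Distant control peaks without a drug partner were weaker. Among peaks named for these genes outside the promoter class, the strongest were at the transcript end of RPS10 with 162 and in the 3′ UTR of RPS23 with 154. Next were those in an intron of another transcript near RPS4X with 152 and in an exon of RPS15 with 148. They were followed by intergenic sites of RPL29 with 143 and RPLP1 with 140, and by transcript ends of RPS29 with 138, RPL22L1 with 128 and RPS7 with 120, together with the 3′ UTR of RPLP1 with 122. In drug the strongest named peak without a control partner, 72816 bp from RPS6, scored 39. Peaks within these genes that carry other names are not in this ranking. A control peak in RPS3 named for SNORD15B scored 171 without a drug partner. A drug peak in RPS20 named for SNORD54 scored 78 without a control partner. Over all named peaks, start-site peaks and those with a partner included, 17 control and 5 drug peaks were at a transcript end, 38 and 22 were intronic, and 29 and 15 were intergenic. Shares of these classes over all protein-coding names were not computed, so the counts are a description only.

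Ribosomal protein genes host small nucleolar RNAs (snoRNAs) in their introns, which guide the modification of ribosomal RNA, and some peaks within the genes carried snoRNA names. Such a name is that of the nearest annotated start and does not place the peak on the snoRNA. More than 1000 bp from any start, 28 of the genes held 44 control peaks, of which 19 were named for a snoRNA, and 22 lay in a 3′ UTR or at a transcript end. In drug, 13 genes held 18 such peaks, with 10 named for a snoRNA and 12 in a 3′ UTR or at a transcript end. Both counts include the RPS29 peak at the authors' start. The same shares over the peaks within all genes were not computed, so these counts do not show a trait of the ribosomal protein genes. The strongest lay in RPL27A, at chr11:8688715-8689268 on hg38, under the name SNORA3B. It scored 1679 in control and 418 in drug, above the 427 and 143 of the RPL27A start. A peak in RPL10 named for SNORA70 scored 609 and 139, and one in RPL13 named for SNORD68 scored 398 and 79. By class, the peaks in RPL27A, RPL10 and RPL13 lay in a 3′ UTR or at a transcript end.

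The core genes outside the name rule, FAU and RACK1, had start-site peaks in both lists. FAU, which encodes a ubiquitin-like protein fused to a small subunit protein, scored 1118 and 347. RACK1, a scaffold on the small subunit, scored 640 and 201.

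Other gene lists gave a frame for these shares. Start-site peaks were present in 68 of 69 mitochondrial ribosomal protein genes in control, 98.6%, and in 60 in drug, 87.0% (76.7 to 93.9). Their median percentiles were 86.2 and 75.3. Of 27 ribosome biogenesis genes all had one in both lists, led by SBDS with 1672 and 339, DKC1 with 1461 and 481 and NCL with 1265 and 385. Of 12 other TOP genes, 12 had one in control and 11 in drug, with EEF1A1 at 6344 and 1942, NPM1 at 4479 and 1717, EIF4B at 1761 and 533, and the intermediate filament gene VIM at 87 in control only. Proteasome subunits had 31 of 34 in control and 28 in drug. They were taken by symbol and no paralogs were removed, whereas the core list left paralogs out. The shares of the proteasome and core lists are therefore not of like lists. RNA polymerase I genes had 13 of 14 and 12 of 14, with the termination factor gene TTF1 at 74 in control only. The intervals of the core genes and of these lists overlapped in both lists. In peak strength, proteasome subunits had median percentiles of 91.0 in control and 83.4 in drug, and the other TOP genes 92.5 and 91.6. Ribosome biogenesis genes had 86.2 and 74.3, and RNA polymerase I genes 86.5 and 66.9. The core genes, at 91.0 and 85.3, were therefore not set apart from the proteasome and other TOP lists.

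**Figure D5:**
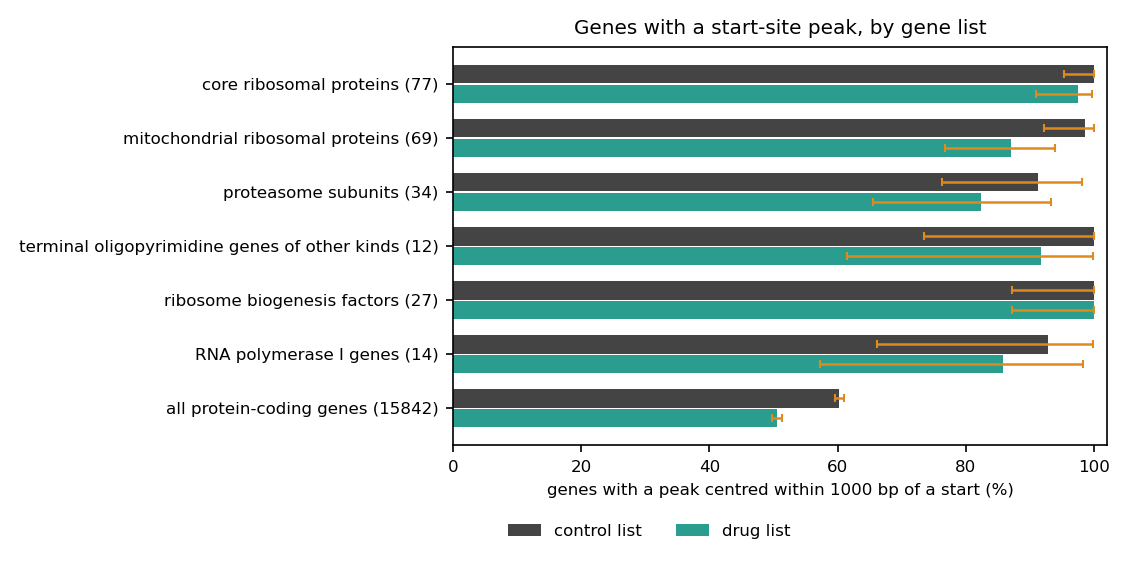
Percentage of genes with a start-site peak in control (dark) and drug (green) for 6 gene lists and all protein-coding genes, with the number of genes with a start in brackets. Error bars are exact Clopper-Pearson 95% intervals that cover counting error only: core ribosomal proteins stand at 100% and 97.4%, mitochondrial ribosomal proteins at 98.6% and 87.0%, and all genes at 60.3% and 50.6%.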

How the data were processed

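Per the file headers, peaks were MACS2 narrow peaks called separately for each library and annotated with HOMER, and the build was hg38. The score of each peak and the distance to the nearest start are the values that the authors deposited. The lowest score was 13 in both lists. Not given in the sources used here are the aligner, tool versions, the handling of reads that map to several places and any control for calling. Without read totals the depth was unknown, and peak number, width and score can all move with depth. In the control list 1 emptied line was not analysed here.

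Groups came from the sample titles. Starts came from a RefSeq table on GRCh38.p14, the same build, with 250 bases before and 50 after each start; 70 of the 88 members matched. For members without an entry the start implied by the authors' distance was used where it lay within 60 bp of a gene end. A start-site peak was the strongest with its centre within 1000 bp of a start, and peaks were overlapped when they shared at least 1 bp. Intervals are exact Clopper-Pearson 95% and cover counting error only. With 1 library per group no test was made. The position matching was tested on simulated data. The members and all gene lists were chosen with earlier results of these data known. The genes named are the 10 strongest and 5 weakest core genes in each list, those with a peak in 1 list only, the 5 with the largest percentile difference each way, up to 10 peaks without a partner, up to 6 peaks under another name, all paralogs and, for other lists, up to 3 strongest and those in 1 list only; the extremes of rank and width, the body peaks and the strongest distant peaks were chosen after their values were seen. A few genes that these rules would name are not reported here. Python 3.11.15 with pandas 2.3.3, numpy 2.4.6, scipy 1.17.1 and matplotlib 3.10.9 was used.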

Additional observations from a re-analysis of the deposited data

How the results depend on the processing

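Of 70 values recomputed under other settings, 61 stayed within the limits set for the same result and 9 moved. The median list percentile of all members with a start-site peak, 91.1 in control and 84.9 in drug, was 87.5 and 75.2 among peaks scoring at least 50, 84.8 in control with the control list shortened by score to the drug list's length, and 71.2 and 67.7 among promoter-class peaks of protein-coding genes. Ranked among genes with a start-site peak in both lists, a choice made after seeing the data, it was 59.98 and 63.5. The share of named peaks overlapped, 62.1% in control and 90.2% in drug, was 100% in drug at a score of at least 50 and 75.7% in control at equal list length. These settings remove peaks or change the reference set by construction. Depth was unknown, so a missing drug peak, as at RPL29 and RPL7A, was not detectable at this depth rather than shown to be absent. No paired analysis was possible because each group held 1 library, and leaving out a library was not possible for the same reason.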
